A study of Homo sapiens with 6 samples.

Results

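The Frizzled receptors and their co-receptors LRP5 and LRP6 are the proteins through which a cell receives Wnt ligands, and 10 of their genes are described here: FZD1, FZD2, FZD3, FZD4, FZD5, FZD6, FZD7, FZD8, LRP5 and LRP6. They were taken by name as members of the receptor families, with earlier results of these data known, and each matched 1 row of the gene table, which gives 10 of 54644 genes. RNA was sequenced from SKBR3 cells, a HER2-amplified breast adenocarcinoma line, carried as stable populations after lentiviral infection and puromycin selection. Control cells received the empty pLVX vector and CTTN cells received pLVX-CTTN, which carries the cDNA of cortactin, an actin-binding protein. There were 3 libraries in each group, given as biological replicates, and both groups therefore carry the vector and went through the same selection. Each group is a population made by infection, and the labels do not say whether its 3 libraries came from separate infections or from separate cultures of 1 population, so the p-values measure only the spread between these libraries.

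Frizzled proteins are multi-pass membrane receptors whose extracellular cysteine-rich domain binds Wnt ligands. LRP5 and LRP6 are single-pass receptors of the LDL receptor family that join a Frizzled in the presence of a canonical Wnt, after which Axin is drawn to the membrane and beta-catenin is no longer degraded. Some Frizzleds, FZD3 and FZD6 among them, are best known for planar cell polarity, a branch of Wnt signalling that does not use beta-catenin. The secreted antagonist DKK1 acts on this receptor layer by binding LRP5 and LRP6, and DKK1 and Wnt signalling are what the study followed up in CTTN cells.

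CTTN, the targeted gene, was the first check of the labels. Its estimated counts, which are the numbers of fragments that Cufflinks assigned to a gene after scaling between libraries, were 29088, 37144 and 18999 in CTTN replicates 1 to 3 and 10912, 11228 and 11265 in the Control libraries. All 3 CTTN libraries lay above all 3 Control libraries, and CTTN rose by a log2 fold change of 1.35 (95% interval 0.82 to 1.88, edgeR adjusted p = 0.028). Without CTTN replicate 1 or without any 1 of the Control libraries the CTTN difference kept its direction but not its call, with log2 fold changes of 1.33 to 1.36 and edgeR adjusted p-values of 0.14 to 0.17. The call was also lost by limma on log2(FPKM + 1) (adjusted p = 0.063) and on log2(FPKM + 0.1) (adjusted p = 0.061). Sequencing depth was 35618400 to 42126200 fragments per library. The cells matched their label: all 8 luminal and HER2-amplicon markers were above 1 FPKM (fragments per kilobase of transcript, scaled to library size) in both groups, summing to 6985 to 7213 FPKM in Control and 6522 to 9860 FPKM in CTTN libraries. Of 8 fibroblast markers 2 reached 1 FPKM and the sum stayed between 9.64 and 11.1 FPKM in all libraries, with LUM and DCN at 0 in every CTTN library. The 5 leukocyte markers summed to 607 to 633 FPKM in Control and 621 to 859 FPKM in CTTN, nearly all of it from CD68, with PTPRC at 0.199 FPKM or less. The 4 endothelial markers summed to 4.2 to 4.65 FPKM in Control and 1.55 to 2.19 FPKM in CTTN, most of it from CDH5, while PECAM1 stayed at 0.022 FPKM or less. The part of these marker levels in the receptor results was not tested, and in bulk RNA fewer cells of a type and less RNA per cell cannot be told apart.

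CTTN replicates 1 and 3 stood apart from the other 4 libraries in a way that touches long receptor transcripts. Relative to the Control mean, genes with transcripts of up to 1000 bases had a median log2 ratio of 0.37 in CTTN replicate 1 and 0.83 in CTTN replicate 3, whereas genes over 8000 bases had medians of -0.53 and -0.91. CTTN replicate 2 showed no such slope, with medians of 0.02 and -0.00296 at the same ends, and the Control libraries stayed within 0.09 of 0. Receptor transcripts were mostly long, from 2112 bases for FZD2 to 13736 bases for the leading FZD3 transcript. Each receptor is therefore given from all 6 libraries, from the same libraries after each library's trend on transcript length was removed, and from CTTN replicate 2 alone against the 3 Control libraries, both added after the data were seen. In the last of these the lone CTTN library is assumed to vary as the Control libraries do, so its p-values compare that library with the Control group. The cause of the slope was not tested.

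The genes differ in build, which bears on how their fragments could be counted. In GRCh38 coordinates of the gene table, FZD1 spans chr7:91264364-91271326, FZD2 chr17:44557459-44559570, FZD7 chr2:202034587-202038445, FZD8 chr10:35638249-35642278 and FZD5 chr2:207762586-207769563. FZD1, FZD2, FZD7 and FZD8 have 1 exon, FZD4 and FZD5 have 2, FZD6 has 7, FZD3 has 8 and LRP5 and LRP6 have 23 each. Noncoding sequence makes up 6.09% of the leading LRP5 transcript, 51.7% of that of LRP6 and 85.5% of that of FZD3. LRP5 lies at chr11:68312609-68449275. For FZD4 the table gives chr11:86791059-86955391 and for LRP6 chr12:12049844-12267012, and the FZD4 span is a joint locus that PRSS23 shares in the table. Whether the LRP6 span is also a joint locus was not examined, so it may be wider than the gene. In the GENCODE annotation, PRSS23, which lies on the opposite strand, overlaps 18.9% of the leading FZD4 transcript, but PRSS23 had only 2.22 to 14.4 estimated counts per library. Exons of genes not named in the gene table overlap 7.85% and 2% of the FZD8 transcript, and no other member's leading transcript overlaps an exon of another gene.

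Close relatives among the Frizzleds share coding sequence. The leading transcripts of FZD1 and FZD2 share 1 run of 81 bases, those of FZD2 and FZD7 1 run of 69 bases, those of FZD2 and FZD5 1 run of 52 bases and those of FZD5 and FZD8 runs of 50 and 51 bases, all of it coding in both genes. All but the 51-base run are shown, from the GENCODE transcripts, because a fragment inside them cannot be placed on 1 gene by sequence alone. Capitals mark the longest stretch that a further member also holds, and lower-case bases may be held by others too. In the FZD1 and FZD2 run the capitals are 40 bases also found in FZD7, in the FZD2 and FZD7 run 38 bases also found in FZD1, in the FZD2 and FZD5 run 28 bases also found in FZD7, and in the 50-base FZD5 and FZD8 run 25 bases also found in FZD1. The FZD1 and FZD2 run ends in lower case with bases that open the FZD2 and FZD5 run, so FZD5 and FZD7 hold them as well.
FZD1 and FZD2: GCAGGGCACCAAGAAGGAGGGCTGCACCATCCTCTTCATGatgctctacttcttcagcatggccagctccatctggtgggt
FZD2 and FZD7: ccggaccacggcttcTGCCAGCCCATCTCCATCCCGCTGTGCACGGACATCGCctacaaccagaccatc
FZD2 and FZD5: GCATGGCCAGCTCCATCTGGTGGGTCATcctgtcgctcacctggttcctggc
FZD5 and FZD8: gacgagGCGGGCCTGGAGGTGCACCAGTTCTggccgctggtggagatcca
Stretches of 50 bases shared with FZD1 were 0.858% of all such stretches of the FZD2 transcript and those shared with FZD7 were 0.536%, so most of each transcript is its own. FZD3, FZD4, FZD6, LRP5 and LRP6 shared no stretch of 50 bases with any other member, LRP5 and LRP6 included as a pair.

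Among the receptors, LRP5 and FZD6 were the most abundant transcripts of SKBR3 cells. In FPKM, a level per transcript length, the Control means were 33.0 ± 1.61 for LRP5 (SD, n = 3), 11.8 ± 0.814 for FZD6, 3.76 ± 0.143 for LRP6, 3.65 ± 0.207 for FZD1, 3.29 ± 0.443 for FZD3 and 2.69 ± 0.207 for FZD4. The lower end held FZD2 at 2.32 ± 0.0803, FZD5 at 1.58 ± 0.143, FZD8 at 1.03 ± 0.134 and FZD7 at 0.486 ± 0.0534 FPKM. The Control ranges of neighbours in this order did not overlap except between LRP6 and FZD1, between FZD1 and FZD3 and between FZD3 and FZD4. The order within each of these pairs is not settled by these libraries. The Control range of LRP6 lay above those of FZD3 and FZD4, and that of FZD1 above that of FZD4. The FZD3 level rests in part on a short form, ENST00000523546 of 580 bases, which supplied 1.95, 1.58 and 0.826 FPKM in the Control libraries, while the leading FZD3 transcript stood at 1.65, 1.91 and 1.96 FPKM, below FZD2. Over all 6 libraries the ranges of LRP5, of FZD6 and of FZD7 stood clear of every neighbour. FZD6 supplied 42.1%, 45.3% and 44.6% of the summed Frizzled FPKM in the Control libraries and 37.2%, 41.3% and 28.6% in CTTN replicates 1 to 3. The summed level of the 8 Frizzleds was 25.9, 27.5 and 27.2 FPKM in Control and 21.3, 25.2 and 19.9 FPKM in CTTN. FZD9, which is outside the 10 genes, is not in this sum and stood at 1.09, 1.05 and 1.49 FPKM in Control and 1.77, 1.90 and 2.87 FPKM in CTTN.

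**Figure D1:**
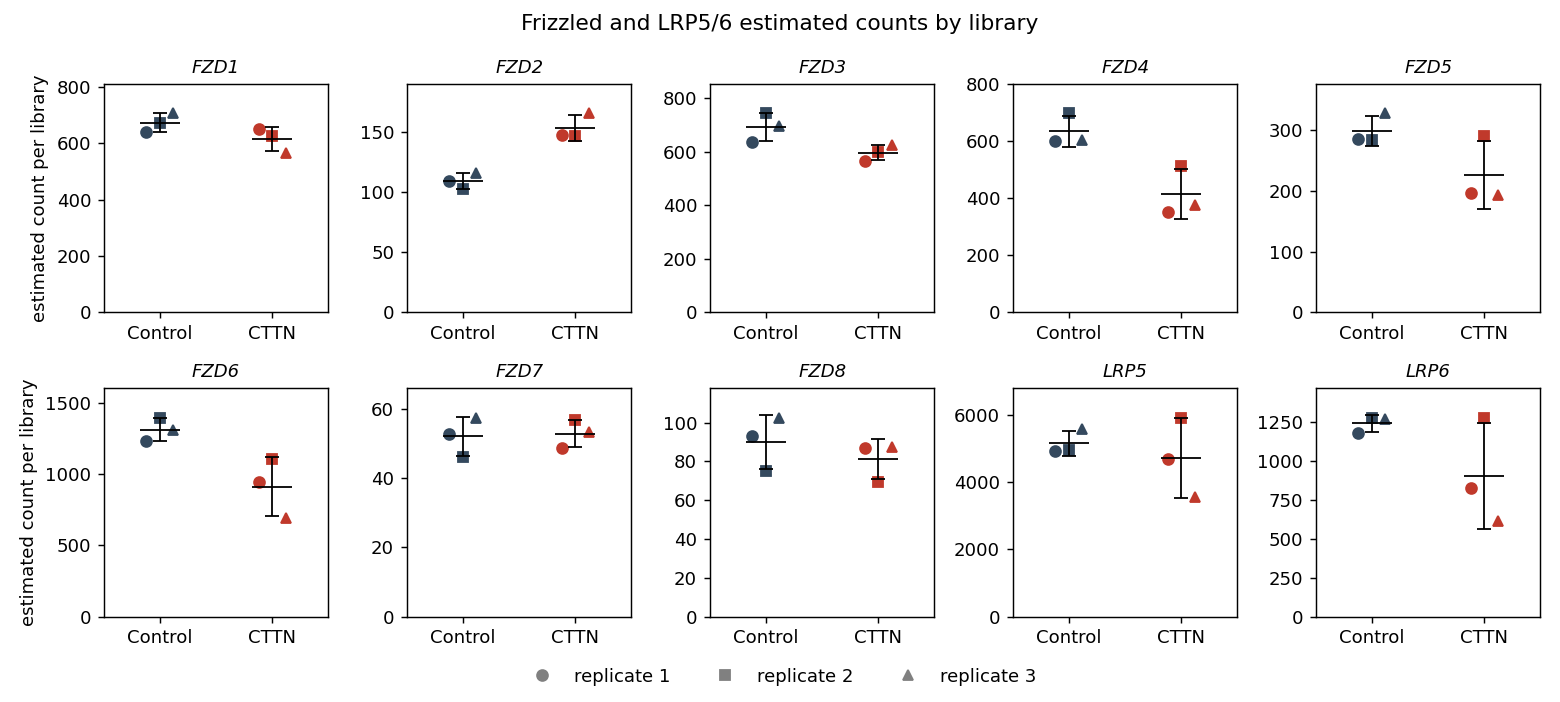
Estimated count of each receptor gene (vertical axes, starting at 0) in the 3 Control and the 3 CTTN libraries, with the replicate number given by the marker shape. Horizontal lines are group means and bars are 1 SD (n = 3), and FZD2 is the gene whose CTTN libraries all lie above Control, while FZD3, FZD4 and FZD6 lie below.

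None of the 10 receptor genes passed the test between CTTN and Control when all 6 libraries were fitted. By edgeR's quasi-likelihood test with Benjamini-Hochberg adjustment over 14433 genes, 3.82% of genes were called at 0.05, 2.05% higher and 1.77% lower, and 0 of the 10 receptors were among them. At an unadjusted p under 0.05, 3 of the 10 passed (FZD2, FZD4 and FZD6), against 29.4% of all genes. The DESeq2 Wald test called the same 3 genes, where it called 14.3% of all genes. Counts did not overlap between the groups for 4 receptors, FZD2 with all CTTN libraries above all Control libraries, as were 19.7% of all genes, and FZD3, FZD4 and FZD6 with all below, as were 18.9%. The share of receptors that separated the groups was thus close to that of all genes. The median log2 fold change was -0.18 over the 10 receptors and 0.01 over all genes tested.

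Removing the length trend left 1 receptor called, FZD6, where 19.3% of all genes were called. CTTN replicate 2 alone differed from Control in 3 receptors, FZD4 and FZD6 lower and LRP5 higher, where 16.3% of all genes were called. Without CTTN replicate 2, which leaves the pair of CTTN libraries with the slope, 5 receptors were called (FZD2 higher and FZD4, FZD5, FZD6 and LRP6 lower) with 46.8% of all genes. These comparisons share the Control libraries, and the receptors called differ according to which CTTN libraries enter. The median over the receptors moved from -0.18 to 0.04 once the length trend was removed, and was -0.08 in CTTN replicate 2, with all-gene medians of -0.00585 and -0.00137.

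**Figure D2:**
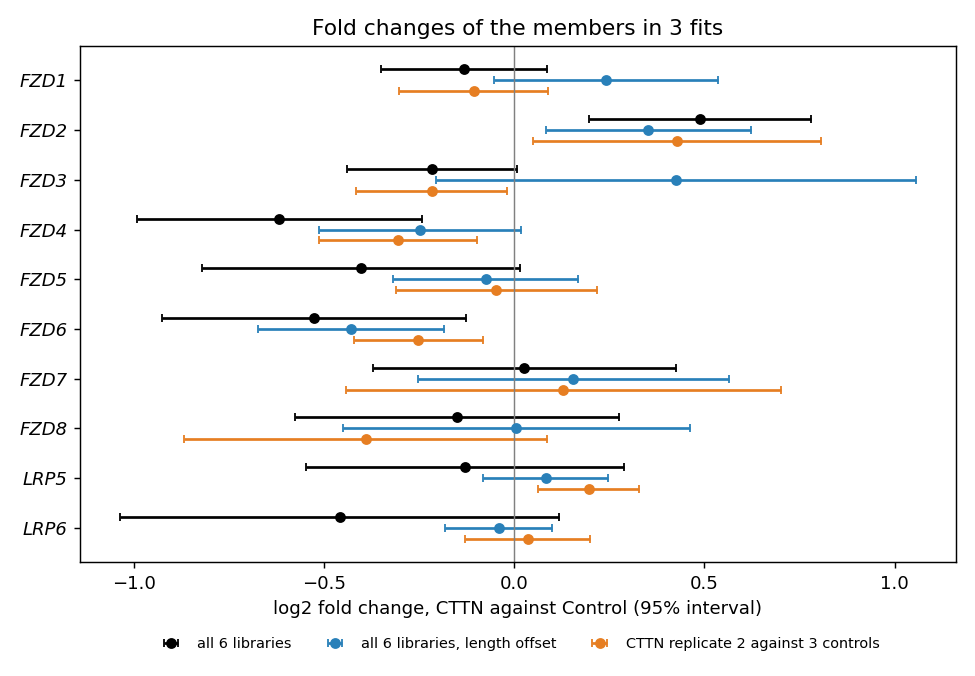
Log2 fold changes of CTTN against Control with 95% intervals (horizontal axis) for each receptor in 3 edgeR fits, all 6 libraries in black, the same libraries with the length trend removed in blue and CTTN replicate 2 against the 3 Control libraries in orange. FZD6 lies below 0 and FZD2 above 0 in all 3, and the intervals of LRP6 narrow around 0 in the latter pair.

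FZD6, which is known to act in planar cell polarity and can oppose beta-catenin signalling, was lower in CTTN cells in each of the fits, and called in some of them. Its estimated counts were 1229, 1395 and 1309 in Control and 942, 1103 and 688 in CTTN replicates 1 to 3. Every CTTN library was below every Control library, CTTN replicate 3 farthest. Over all libraries the log2 fold change was -0.53 (95% interval -0.93 to -0.13, edgeR adjusted p = 0.11), and with the length trend removed FZD6 fell by 0.43 on the log2 scale (interval -0.68 to -0.18, adjusted p = 0.026). In CTTN replicate 2 alone it was lower by a log2 difference of -0.25 (interval -0.42 to -0.08, adjusted p = 0.028). With transcripts of 3682 bases on average, FZD6 stood below genes of like length in all 3 CTTN libraries: its log2 ratios were -0.47, -0.25 and -0.93, and the medians of the 2120 genes between 3000 and 4000 bases were -0.06, -0.01 and -0.18.

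FZD4, a receptor that binds Norrin as well as Wnts, was lower in every CTTN library. It had 603, 698 and 605 estimated counts in Control and 351, 515 and 377 in CTTN, with CTTN replicate 2 the nearest to Control. Its log2 fold change was -0.62 (interval -0.99 to -0.24, edgeR adjusted p = 0.078), the largest in size among the receptors. With a transcript of 7383 bases it is a long gene, and the 832 genes of 6000 to 8000 bases had median log2 ratios of -0.37 and -0.72 in CTTN replicates 1 and 3, beside -0.85 and -0.75 for FZD4. Removing the trend gave -0.25 (interval -0.51 to 0.02, adjusted p = 0.16), whereas CTTN replicate 2 alone gave -0.31 (interval -0.51 to -0.10, adjusted p = 0.030).

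FZD3, also known for planar cell polarity in the nervous system, is the longest transcript of the set. Its counts were 637, 743 and 697 in Control and 567, 597 and 625 in CTTN, again without overlap. FZD3 had a log2 fold change of -0.22 (interval -0.44 to 0.01, edgeR adjusted p = 0.18) and -0.22 in CTTN replicate 2 alone (adjusted p = 0.13). Genes over 8000 bases had medians of -0.53 and -0.91 in CTTN replicates 1 and 3, and FZD3 had -0.28 and -0.14, so that removal of the trend turned its direction to 0.42 (interval -0.21 to 1.06, adjusted p = 0.29). No direction for FZD3 held across the 3 fits. In FPKM the groups overlapped, with 2.79 to 3.60 in Control and 2.80 to 3.66 in CTTN.

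FZD2, FZD1 and FZD7 form the subfamily whose shared runs are printed above, and of the 3 only FZD2 separated the groups. FZD2 counts were 109, 102 and 116 in Control and 147, 147 and 165 in CTTN, and its 3 CTTN libraries lay close together in spite of the slope seen among them. The log2 fold change was 0.49 (interval 0.20 to 0.78, edgeR adjusted p = 0.076). It was 0.35 with the length trend removed (interval 0.08 to 0.62, adjusted p = 0.068) and 0.43 in CTTN replicate 2 alone (interval 0.05 to 0.81, adjusted p = 0.11), so the size was alike in the 3 fits and none reached the threshold. The transcript of FZD2 in the gene table has 2112 bases and the GENCODE one 3779, so the annotated transcript is longer than the one counted here. The length trend was removed at 2112 bases. Genes of 2000 to 3000 bases had median log2 ratios of 0.08 and 0.12 in CTTN replicates 1 and 3. Genes of 3000 to 4000 bases had -0.06 and -0.18 there, so the 0.35 depends on the shorter length.

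FZD1 had 639, 673 and 706 counts in Control and 650.0, 626 and 566 in CTTN, overlapping between groups. Its log2 fold change was -0.13 (interval -0.35 to 0.08, edgeR adjusted p = 0.33), 0.24 after removal of the length trend (interval -0.05 to 0.53) and -0.11 in CTTN replicate 2 (interval -0.30 to 0.09). FZD7, a receptor linked in breast cancer to the basal type, was the rarest receptor, with 52.6, 46.3 and 57.5 counts in Control and 48.7, 56.7 and 53.2 in CTTN. Its difference was 0.03 (interval -0.37 to 0.42, adjusted p = 0.92), an interval that leaves room for a change of either sign, and 0.16 and 0.13 in the other two fits.

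FZD5 and FZD8 form another related pair, and neither was called in any of the 3 fits. FZD5 had 285, 284 and 328 counts in Control and 196, 290.2 and 193 in CTTN. Here CTTN replicates 1 and 3 were low and CTTN replicate 2 lay within the Control range. The log2 fold change of FZD5 was -0.40 (interval -0.82 to 0.02, edgeR adjusted p = 0.18) in all 6 libraries, -0.08 with the length trend removed and -0.05 in CTTN replicate 2 alone (intervals -0.32 to 0.17 and -0.31 to 0.22). FZD8 had 92.9, 75.1 and 103 counts in Control and 87.1, 69.4 and 87.5 in CTTN. Its differences were -0.15 (interval -0.58 to 0.27), 0.01 and -0.39 in the 3 fits.

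LRP6, a main co-receptor of canonical Wnt signalling, was low only in the libraries with the slope. Its counts were 1179, 1280.4 and 1273 in Control and 826, 1278 and 613 in CTTN replicates 1 to 3. CTTN replicate 2 thus lay inside the Control range. The log2 fold change was -0.46 (interval -1.04 to 0.12, edgeR adjusted p = 0.23), but -0.04 after removal of the length trend (interval -0.18 to 0.10, adjusted p = 0.66) and 0.04 in CTTN replicate 2 (interval -0.13 to 0.20, adjusted p = 0.83). Without CTTN replicate 2 it was -0.80 (adjusted p = 0.0030), so the value for LRP6 rests on which CTTN libraries enter. Ratios of LRP6 to Control were -0.59 and -1.02 in CTTN replicates 1 and 3, and genes over 8000 bases had medians of -0.53 and -0.91.

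LRP5, which is closely related to LRP6 and also bound by DKK1, gave answers that depended on the scale. Its estimated counts were 4939, 4964 and 5597 in Control and 4700.1, 5929 and 3557 in CTTN, so that CTTN replicate 3 was the lowest of all libraries. Its FPKM were 33.8, 31.2 and 34.2 in Control and 35.0, 35.2 and 47.3 in CTTN, and on this scale CTTN replicate 3 was the highest. The log2 fold change of the counts was -0.13 (interval -0.55 to 0.29, edgeR adjusted p = 0.62), 0.08 without the length trend (interval -0.08 to 0.25) and 0.20 in CTTN replicate 2 alone (interval 0.06 to 0.33, adjusted p = 0.031). By limma on log2(FPKM + 1) the difference was 0.23 (adjusted p = 0.29).

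The scales parted at short LRP5 transcripts. The full-length transcript, ENST00000294304 with 5159 bases, stood at 24.2, 25.3 and 26.6 FPKM in Control and 24.7, 27.9 and 18.5 FPKM in CTTN. ENST00000529702, of 586 bases, stood at 6.32, 3.33 and 4.07 FPKM in Control and 7.31, 4.38 and 21.0 FPKM in CTTN. ENST00000529481, of 551 bases, stood at 1.59, 1.97 and 2.67 FPKM in Control and 2.47, 2.40 and 7.59 FPKM in CTTN. In CTTN replicate 3 the full-length form was at its lowest and both short forms at their highest. A gene's FPKM is the sum over its transcripts, so few fragments on a short form raise it: the 586-base form held 307 of the 3557 LRP5 counts in that library.

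At LRP6 too, CTTN replicate 3 stood apart by start site. The leading start site, which holds the 10020-base transcript ENST00000261349, had 1023, 1094 and 951 counts in Control and 709.8, 951 and 297 in CTTN. Another start site, that of ENST00000538239, had 48.0, 0.0323 and 9.21e-07 counts in Control and 72.9, 0.00215 and 296 in CTTN, so that in CTTN replicate 3 it was given as much as the leading one. A further LRP6 start site had 108, 187 and 322 counts in Control and 43.5, 325 and 19.8 in CTTN. The split between start sites thus varied among the Control libraries too. For FZD6 the leading start site had 1121, 1395 and 1208 counts in Control and 924, 1065 and 688 in CTTN, every CTTN library below Control, as in the gene total. Within this start site a 2910-base form was given 183 counts in CTTN replicate 3 and almost none in the other libraries. FZD3 likewise had a 13067-base form with 290 counts in CTTN replicate 3 and 0.480 or less in every other library. Of 23 start sites of the receptors 15 had enough counts to test, and 0 were called by edgeR's quasi-likelihood test, where 0% of 35916 start sites were called, with 1 receptor start site (FZD4) at an unadjusted p under 0.05, beside 9.94% of all start sites. For FZD1, FZD2, FZD4, FZD5, FZD7 and FZD8 the files hold 1 start site and 1 transcript each, so the gene and its start site are the same values.

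Promoters are shown for FZD4 and LRP5, the pair of genes called in CTTN replicate 2 alone in opposite directions whose promoters were in the RefSeq table. The table (GRCh38.p14) held 5 of the 10 genes, FZD1, FZD4, FZD5, FZD8 and LRP5. Each line gives the 250 bases before the annotated start, 5' to 3' on the gene's strand, chr11:86955396-86955645 on the minus strand for FZD4 and chr11:68312341-68312590 on the plus strand for LRP5, with each GC box (GGGCGG on either strand, overlaps counted) in capitals.
FZD4: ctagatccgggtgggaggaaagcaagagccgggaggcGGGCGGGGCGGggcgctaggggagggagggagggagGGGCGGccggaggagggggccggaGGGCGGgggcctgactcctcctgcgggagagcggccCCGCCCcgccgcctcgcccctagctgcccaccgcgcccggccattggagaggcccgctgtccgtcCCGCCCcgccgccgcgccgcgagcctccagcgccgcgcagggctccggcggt
LRP5: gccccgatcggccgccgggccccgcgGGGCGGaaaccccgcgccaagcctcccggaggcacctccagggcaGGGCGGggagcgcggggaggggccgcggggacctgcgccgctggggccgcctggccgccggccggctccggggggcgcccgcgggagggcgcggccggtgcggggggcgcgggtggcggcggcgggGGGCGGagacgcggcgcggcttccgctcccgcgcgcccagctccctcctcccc
FZD4 held 6 GC boxes and LRP5 held 3, and 42.6% of 34788 promoters of this length held at least 1. GC content was 80.8% in FZD4 and 87.2% in LRP5, against a median of 58% over all promoters. The core of the motif bound by TCF and LEF factors, CTTTG on either strand, was in neither window and in 42.1% of all promoters. Of the other 3 genes only FZD1 held CTTTG, in 2 places. These letters are a description of the windows and say nothing of a factor's binding.

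The layer around the receptors was taken from lists of 111 genes, of which 68 had enough counts to test. By edgeR 3 of them were called in all 6 libraries, beside 3.82% of all genes, and 21 had an unadjusted p under 0.05, beside 29.4% of all genes, so both shares were near those of all genes. Among the 11 tested partners of the co-receptors 1 was called, KREMEN2, a receptor that binds DKK1 together with LRP6 and removes LRP6 from the surface. KREMEN2 counts were 785, 696 and 764 in Control and 1693, 1219 and 2292 in CTTN, and it rose by a log2 fold change of 1.21 (interval 0.69 to 1.73, adjusted p = 0.035), by 1.06 without the length trend and by 0.70 in CTTN replicate 2 alone. Among 10 tested Wnt ligands and their export proteins 1 was called, WNT6, with 12.4, 6.11 and 4.79 counts in Control and 51.8, 32.2 and 96.4 in CTTN. WNT6 rose by a log2 fold change of 2.95 (interval 1.68 to 4.22, adjusted p = 0.035) from 0.385 FPKM or less in Control, with 2.69 and 2.04 in the other two fits (adjusted p = 0.0038 and 0.00095). Among 9 tested relatives of LRP5 and LRP6 in the LDL receptor family 1 was called, VLDLR, a lipoprotein and reelin receptor. VLDLR had 456, 417 and 425 counts in Control and 146, 157 and 166 in CTTN, and fell by 1.47 on the log2 scale (interval -1.71 to -1.23, adjusted p = 0.0031), with -1.21 and -1.47 in the other two fits. VLDLR stayed called without any 1 library (edgeR adjusted p at most 0.046), whereas KREMEN2 and WNT6 lost their calls without CTTN replicate 1 (adjusted p = 0.15 and 0.14) and without any 1 Control library (0.16 to 0.20 and 0.11 to 0.20). Both also lost their calls by limma on log2(FPKM + 1) (adjusted p = 0.12 and 0.13) and on log2(FPKM + 0.1) (0.12 and 0.096).

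No gene was called in all 6 libraries among the 18 tested proteins at the receptor tail, the 4 tested receptor turnover genes, the 6 tested noncanonical receptors, the 4 tested secreted antagonists or the 10 tested Wnt target genes. DKK1 had 40.2, 63.7 and 63.2 counts in Control and 35.2, 26.4 and 36.6 in CTTN, every CTTN library below Control in counts. In FPKM the groups overlapped, with 0.820, 1.61 and 1.80 in Control and 1.03, 0.761 and 0.671 in CTTN. Its log2 fold change was -0.77 (interval -1.37 to -0.16, edgeR adjusted p = 0.12) in all 6 libraries, and it fell by 0.998 with the length trend removed (adjusted p = 0.022) and was at -1.10 in CTTN replicate 2 alone (adjusted p = 0.019). DKK1 was not called by DESeq2 (adjusted p = 0.076) or by limma on log2(FPKM + 1) (adjusted p = 0.24). AXIN2, a common readout of beta-catenin activity, had 18.6, 36.7 and 32.6 counts in Control and 22.8, 28.3 and 17.7 in CTTN, with a log2 fold change of -0.37 (interval -1.11 to 0.38, adjusted p = 0.43), and -0.30 and -0.09 in the other two fits. The groups overlapped for AXIN2. The remaining Frizzleds fell outside the 10: FZD10 was at 0 in every library, and FZD9 had 59.8, 55.9 and 84.3 counts in Control and 92.3, 112 and 143 in CTTN (log2 fold change 0.79, edgeR adjusted p = 0.096), named after its values were seen. FZD9 was called higher in the other two fits, with 0.70 after removal of the length trend (adjusted p = 0.047) and 0.74 in CTTN replicate 2 alone (adjusted p = 0.014).

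Genes with a pattern over the 6 libraries most like that of FZD6 and LRP6 were found by Pearson correlation of log2(FPKM + 1) among 11899 genes of at least 1 FPKM on average. For FZD6 these were STIL (r = 0.9995), TAF4, which shares its row with MIR1257 (r = 0.9990), and SH3BP4 (r = 0.9988). For LRP6 they included MEF2A (r = 0.9996) and SAMD8 (r = 0.9994). The highest 5% of all genes lay above r = 0.9788 for FZD6 and above 0.9771 for LRP6. The points are 6 libraries, CTTN replicates 1 and 3 with the slope on transcript length among them, and the values are given as a description only.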

How the data were processed

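Total RNA from SKBR3 cells was made into stranded polyA libraries and sequenced as paired ends, with 3 Control and 3 CTTN libraries of 35618400 to 42126200 fragments. Per the submitters' processing notes the authors used bcl2fastq 2.20.0, Trimmomatic, STAR and Cufflinks on GRCh38. The study's methods name another trimmer and an older build, and the loci in the tables are those of GRCh38. The estimated counts were deposited as Cufflinks gave them, already divided by a scale factor per library of 0.902 to 1.15. The FPKM values were deposited per gene, start site and transcript with the same scaling by the authors. Whether strand was used in counting is not given in the sources used here. CTTN columns were matched to samples by their description. Control columns are numbered differently in the sample descriptions and in the sample table of the series, and the sample table was followed, under which all 3 are Control.

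Estimated counts were rounded to whole numbers, filtered with filterByExpr, scaled by TMM and tested with edgeR 4.0.16 (quasi-likelihood, Benjamini-Hochberg over all genes tested, threshold 0.05) under R 4.3.3. Log2 ratios to the Control mean used a pseudocount of 1 and genes with a mean count of at least 50. The length trend was removed with an offset per library from a lowess curve (span 0.3). Alternatives were DESeq2 1.42.0, limma 3.58.1 on log2(FPKM + 1) and log2(FPKM + 0.1) with a mean of at least 0.5 FPKM, no filter, other scalings, a replicate block and leaving out each library. The edgeR fit of all 6 libraries and the length offset were run on simulated data, and the other fits were not. The 10 receptors and the gene lists around them were chosen with earlier results of these data known. Beside the receptors, CTTN, DKK1 and AXIN2 were always named, and from each list up to 3 called genes with a mean of at least 1 FPKM, by size of change. For FZD6 and LRP6 the 3 most correlated genes were taken, of which 1 is not reported here. Levels between genes were compared in FPKM only.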

Additional observations from a re-analysis of the deposited data

How the results depend on the processing

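Of the receptors, 0 of 10 passed edgeR's test with all 6 libraries, 1 passed with a length offset, 3 with CTTN replicate 2 alone (both chosen after seeing the data), 3 by DESeq2, and 0 to 5 with 1 library left out, the 5 without CTTN replicate 2. Genes called overall were 552 with all libraries, 105 with a replicate block, 2783 with the length offset, 2355 with CTTN replicate 2 alone, 2069 by DESeq2, 120 and 144 by limma on log2(FPKM + 1) and log2(FPKM + 0.1), and 11 to 6890 with 1 library left out. Pathway genes called were 3 with all libraries, 1 with the replicate block, 16 with the length offset, 18 with CTTN replicate 2 alone, 9 by DESeq2, 1 by each limma fit, and 1 to 30 with 1 library left out. Deviations of same-numbered CTTN and Control libraries had r = 0.028, 0.079 and -0.19 across genes, and other pairs had -0.26 to 0.23. The numbers of the Control libraries are uncertain, so these values cannot show whether the replicate block pairs related libraries. The replicate block called 0 receptors. Under it CTTN, KREMEN2 and WNT6 missed the threshold (edgeR adjusted p = 0.065, 0.059 and 0.069). Direction turned with the length offset for FZD1 (0.2399), FZD3 (0.4247), FZD8 (0.0052) and LRP5 (0.0821), with CTTN replicate 2 alone for LRP5 (0.1955) and LRP6 (0.0357), and by limma for LRP5 (0.2262 and 0.2316). With 1 library left out FZD7 ranged from -0.0551 to 0.093 and LRP5 from -0.3291 to 0.038 on the log2 scale. FZD2, FZD4, FZD5 and FZD6 kept their direction in all 15 alternatives. Counts of FZD7, FZD8, DKK1 and AXIN2 were at most 103 per library, which limits what their intervals can show. The cause of these differences was not tested.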

Other observations

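Of the 68 tested genes around the receptors 8 missed the threshold in all 6 libraries but passed it both with the length offset and in CTTN replicate 2 alone (11.8%, beside 8.48% of all genes), a rule chosen after the values were seen. DKK1 and FZD9 are described above, and the other 6 follow. WNT5A, a Wnt ligand known for signalling without beta-catenin, had 3325, 3358 and 3237 estimated counts in Control and 2327, 2658 and 1970.4 in CTTN (log2 fold change -0.51, edgeR adjusted p = 0.061), and -0.22 and -0.32 in those fits (adjusted p = 0.037 and 0.000462). WNT9A had 1412, 1490 and 1519 counts in Control and 1065, 1199.9 and 926 in CTTN, with log2 fold changes of -0.47, -0.34 and -0.30 (edgeR adjusted p = 0.067, 0.0044 and 0.0055). Both ligands were below Control in every CTTN library. RECK, a membrane-anchored protein that takes part in Wnt7 reception, had 185, 196 and 152 counts in Control and 231, 272 and 247 in CTTN, with log2 fold changes of 0.49, 0.57 and 0.61 (edgeR adjusted p = 0.089, 0.015 and 0.0013). AXIN1, the scaffold that LRP6 draws to the membrane, had 1792, 1780.5 and 2012 counts in Control and 2196, 2242 and 2072 in CTTN, with log2 fold changes of 0.22, 0.31 and 0.27 (edgeR adjusted p = 0.15, 0.0082 and 0.0073). LRP1, a large relative of LRP5 and LRP6, had 254, 266 and 266 counts in Control and 239, 377 and 166 in CTTN, and its log2 fold change went from -0.01 over all 6 libraries to 0.53 with the length offset and 0.52 in CTTN replicate 2 (edgeR adjusted p = 0.98, 0.0047 and 0.0013). CELSR1, a planar cell polarity cadherin, had 2028, 2097 and 2263 counts in Control and 1721, 2498 and 1321 in CTTN, with log2 fold changes of -0.21, 0.22 and 0.23 (edgeR adjusted p = 0.51, 0.021 and 0.021).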
